A study of Mus musculus with 2 samples.

Results

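The heat shock proteins and chaperonins of mouse frontal cortex are described here as 82 protein-coding genes among 43346 annotated genes, of which 21474 are protein-coding. The members were taken by symbol, with no use of their values. They are the Hspa, Hspb, Hspd, Hspe, Hsph and Hsp90 genes, the numbered Dnaja, Dnajb and Dnajc genes, Cct2 to Cct8 with their paralogues, Tcp1, Hsf1 and Hsf2. In the annotation used for names 83 genes carry such symbols, and the identifier of 1 of them, Hspa14, was not analysed here. By family the members are 10 HSP70 genes, 3 HSP110 genes, 3 HSP90 genes, 8 small heat shock proteins, 2 mitochondrial chaperonin genes, 9 CCT genes, 45 J-protein genes (4 DNAJA, 13 DNAJB and 28 DNAJC) and 2 heat shock transcription factors. The tissue was frontal cortex of adult C57BL/6J mice aged 8 weeks, with no treatment named, and stranded paired-end reads were made from polyadenylated RNA longer than 200 nt after ribosomal RNA depletion. There is 1 group with 2 biological replicates, described as mixed sex littermates, and both carry the same donor identifier, so the labels do not say whether they came from separate animals. With no second condition, the comparisons are between members and between the replicates.

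HSP70 proteins bind exposed hydrophobic stretches of other proteins and release them in a cycle driven by ATP. J-proteins start that cycle and HSP110 proteins and other exchange factors end it, HSP90 acts later on kinases and steroid receptors, and the ring-shaped chaperonins enclose whole chains, with CCT folding actin and tubulin in the cytosol and Hspd1 with Hspe1 acting in mitochondria. In neurons the same machinery also works at synapses, where HSP70 strips clathrin from vesicles, and HSF1 raises many of these genes on heat or protein damage.

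Expected counts, estimated fragments per gene, summed to 106084891 in replicate 1 and 90476207 in replicate 2. Slc17a7, a marker of cortical excitatory neurons, was at 447 and 401 TPM in replicates 1 and 2 (a length-adjusted share of all transcripts), and of 3 genes listed for cerebellum Gabra6 and Cbln3 were at 0.02 to 0.13 TPM but Zic1 was at 58.8 and 70.6 TPM. The labels call both replicates pooled male and female. The 4 Y-linked genes examined, however, were at 6.44 to 53.8 TPM in replicate 1 and at 0 to 0.05 TPM in replicate 2. Xist had 0.25 TPM in replicate 1 but 110 TPM in replicate 2. Sex-linked expression thus went with replicate, so a ratio or SD over the replicates cannot be told apart from a difference by sex. The replicates also stood apart in other lists, given as log2 ratios of replicate 1 over replicate 2 of scaled CPM, counts scaled to the library total. All 7 neuronal activity genes were lower in replicate 1 (median −1.12), as were all 5 oligodendrocyte genes (median −0.45), all 5 blood genes (median −0.82) and all 4 striatal genes (median −0.67), whereas all 6 microglial genes (median 0.37) and all 6 mural genes (median 0.42) were higher in replicate 1. The part of any of these in the values below was not tested, and in bulk tissue fewer cells of a type and less RNA per cell cannot be told apart.

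Members together took 0.852 ± 0.0163% of the TPM of nuclear protein-coding genes (SD, n = 2), or 4360 TPM in replicate 1 and 4046 TPM in replicate 2. Most were expressed, with 69 of 82 (84.1%) at 1 TPM or more in both replicates, against 60.7% of all protein-coding genes. At 10 TPM or more there were 53 members (64.6%), against 35.7% of protein-coding genes. At 100 TPM or more there were 5 members (6.1%), against 4.09%. The median member had a mean of 22.6 TPM and the median protein-coding gene 4.095 TPM.

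**Figure D1:**
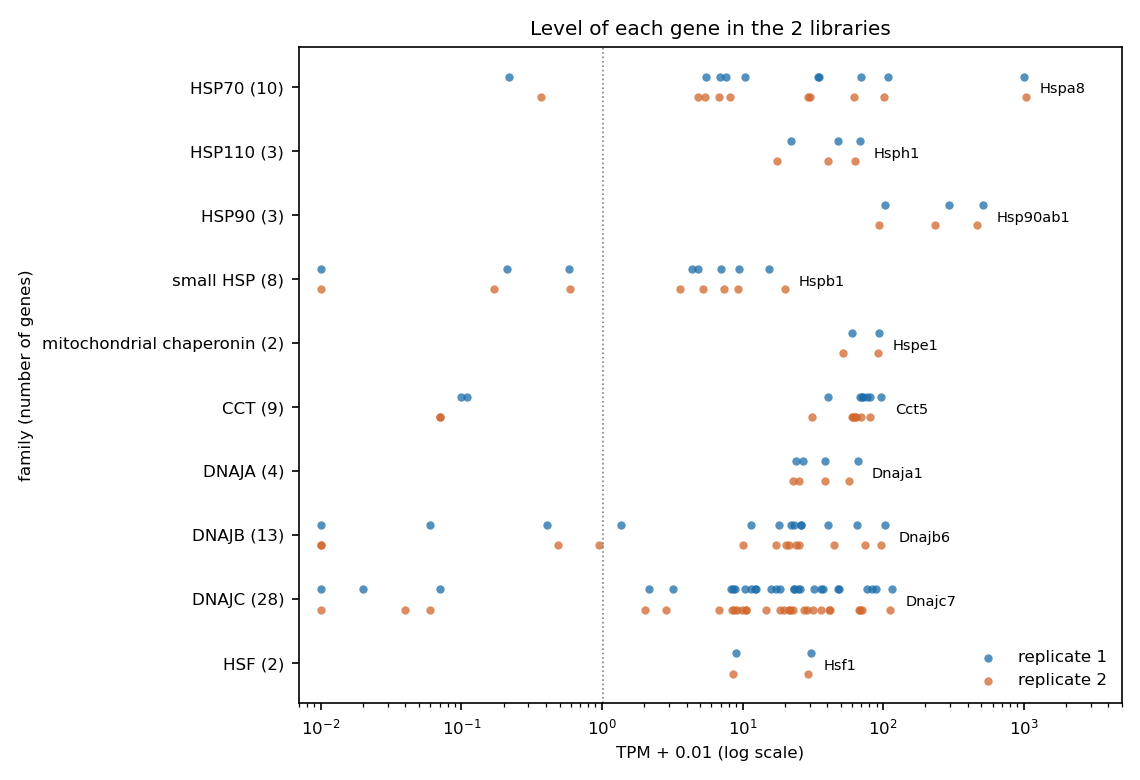
TPM of each of the 82 genes, on a log axis after adding 0.01, by family, with replicate 1 above replicate 2 in each row and the dotted line at 1 TPM; the most abundant gene of each family is named. Hspa8 lay at 1010 and 1033 TPM, and the genes left of the line belong to the small HSP, CCT, HSP70 and J-protein families.

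A few genes held much of the total. Hspa8 alone took 24.3 ± 1.66% of the TPM of the members, Hspa8, Hsp90ab1 and Hsp90aa1 together 42.2 ± 0.869%, the 10 most abundant members 58.3 ± 0.641% and the 20 most abundant 74.8 ± 0.215% (SD, n = 2). By family, HSP70 took 30.6 ± 1.51%, the J-proteins 29.5 ± 0.0164%, HSP90 20.2 ± 0.842%, CCT 11.1 ± 0.700%, the mitochondrial chaperonin 3.54 ± 0.0210%, HSP110 3.09 ± 0.126%, the small heat shock proteins 1.05 ± 0.132% and the heat shock factors 0.916 ± 0.0176%. By the site where the proteins are known to act, the 36 members of cytosol and nucleus took 74.5 ± 0.524%, 9 mitochondrial members 8.83 ± 0.0177%, 10 members of the endoplasmic reticulum 7.80 ± 0.0735% and the 3 members of vesicles and endosomes, Dnajc5, Dnajc6 and Dnajc13, 4.64 ± 0.358%. The other 24 members were given no site. Both orders depended on length adjustment. On expected counts the J-proteins took 31.7% in replicate 1 and 32.9% in replicate 2, above HSP70 with 27.1% and 26.7%. HSP110 had 5.94% and 6.02%, above the mitochondrial chaperonin with 1.78% and 1.78%. By site, the endoplasmic reticulum then took 9.02% and 9.26%, vesicles and endosomes 8.57% and 8.46%, and mitochondria 5.98% and 6.16%.

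Both transcription factors of the heat shock response were expressed at moderate levels. Hsf1, which binds heat shock elements on stress, had 30.4 TPM in replicate 1 and 29.1 TPM in replicate 2. Hsf2, its relative with roles in development, had 8.94 and 8.48 TPM. The log2 ratio of Hsf1 over Hsf2, on TPM plus 0.1, was 1.76 ± 0.0065 (SD, n = 2), and the deposited bounds of the estimates did not overlap in either replicate.

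Heat shock elements are inverted repeats of the unit GAA and its reverse TTC. RefSeq promoter windows (GRCm38.p6, 250 bases before to 50 after a start site) were available for 66 of the 82 members, as 85 windows. Members without a window, and so not searched, included Hspa8, Hsp90ab1, Hsp90aa1, Hspa9, Hsf1, Dnajc5 and Cct4. An element of 3 units, searched on both strands as GAA, TTC and GAA with 2 free bases (NN) between neighbours, stood in a window of 4 members (6.06%), against 0.662% of 27025 genes with a window. The 4 were the mitochondrial chaperonin genes Hspd1 and Hspe1, the HSP110 gene Hsph1 and the J-protein gene Dnajb6. Hspd1 and Hspe1 lie head to head on chromosome 1, their annotated spans overlap, and their windows share the same bases at 55088059 to 55088076. In that stretch 2 matches on opposite strands overlap, so that it holds 4 units in a row. In Hsph1 the match lies just after the start site in both of its windows. The windows are shown because they carry these elements; the last is that of Hspa5, with the ER stress element of the unfolded protein response, searched on both strands as CCAAT, 9 free bases and CCACG. Capitals mark the motif matches, each sequence reads 5′ to 3′ on the strand of its gene, and the windows are chr1:55087898-55088197 (plus strand) for Hspe1, chr5:149636266-149636565 (minus strand) for Hsph1, chr5:29735648-29735947 (plus strand) for Dnajb6 and chr2:34771840-34772139 (plus strand) for Hspa5.
Hspe1: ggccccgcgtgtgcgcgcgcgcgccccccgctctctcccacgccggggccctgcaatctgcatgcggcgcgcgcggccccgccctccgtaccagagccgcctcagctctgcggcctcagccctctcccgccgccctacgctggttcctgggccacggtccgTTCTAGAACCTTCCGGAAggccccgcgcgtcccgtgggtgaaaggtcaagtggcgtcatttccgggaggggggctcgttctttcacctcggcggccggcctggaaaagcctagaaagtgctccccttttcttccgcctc
Hsph1: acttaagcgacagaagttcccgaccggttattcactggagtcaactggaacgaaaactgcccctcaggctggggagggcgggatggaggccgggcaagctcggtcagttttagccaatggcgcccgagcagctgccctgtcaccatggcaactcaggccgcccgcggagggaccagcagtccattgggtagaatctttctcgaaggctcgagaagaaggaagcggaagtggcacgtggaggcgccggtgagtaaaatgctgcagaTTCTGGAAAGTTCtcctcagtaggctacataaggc
Dnajb6: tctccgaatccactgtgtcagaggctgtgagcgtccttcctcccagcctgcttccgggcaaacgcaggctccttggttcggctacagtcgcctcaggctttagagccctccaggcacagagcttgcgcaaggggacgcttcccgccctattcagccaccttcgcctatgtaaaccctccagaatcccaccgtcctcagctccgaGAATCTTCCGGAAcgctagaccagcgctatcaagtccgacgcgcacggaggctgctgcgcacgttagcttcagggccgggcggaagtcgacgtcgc
Hspa5: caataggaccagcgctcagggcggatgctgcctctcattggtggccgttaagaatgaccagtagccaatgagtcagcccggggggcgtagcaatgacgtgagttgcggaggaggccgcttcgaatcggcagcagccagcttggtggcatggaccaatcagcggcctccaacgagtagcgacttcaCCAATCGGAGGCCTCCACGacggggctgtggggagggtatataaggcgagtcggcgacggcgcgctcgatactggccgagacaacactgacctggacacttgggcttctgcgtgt

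All 4 genes with an element of 3 units were well expressed, with means of 56.0 to 99.4 TPM. The median was 19.5 TPM over the other 62 members with a window, and 22.95 TPM over the 53 of them averaging at least 1 TPM. Hspd1 and Hspe1 share their stretch, and only exact letters were searched, so members without a match may hold imperfect elements. In replicates 1 and 2 Hspe1 had 93.7 and 92.3 TPM, Hspd1 60.2 and 51.7 TPM, Hsph1 68.7 and 63.3 TPM, and Dnajb6 103 and 96.1 TPM. The shorter element of 2 units, GAANNTTC or TTCNNGAA, which every element of 3 units contains, was in a window of 19 members (28.8%), against 17% of all genes. Among them were the stress-inducible Hspa1a and Hspa1b and the small heat shock proteins Hspb1, Hspb6 and Hspb8. The 19 members with an element of 2 units had a median of 22.3 TPM and the 47 with a window and no such element 19.9 TPM.

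The ER stress element was in a window of 3 members (4.55%), against 0.137% of all genes. All 3 act in the endoplasmic reticulum: Hspa5, also called BiP, Hsp90b1, also called GRP94, and Dnajc3. Hspa5 had 108 and 102 TPM, Hsp90b1 had 103 and 92.7 TPM, and Dnajc3 had 11.5 and 9.87 TPM in replicates 1 and 2. The letters TATAAA, searched on both strands and anywhere in the window, were in a window of 4 members (6.06%), against 15.7% of all genes. These 4, Dnajc19, Dnajc24, Hspb3 and Hspb6, had means of 3.985 to 35.9 TPM. A match describes letters in a window and is not evidence of binding.

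**Figure D2:**
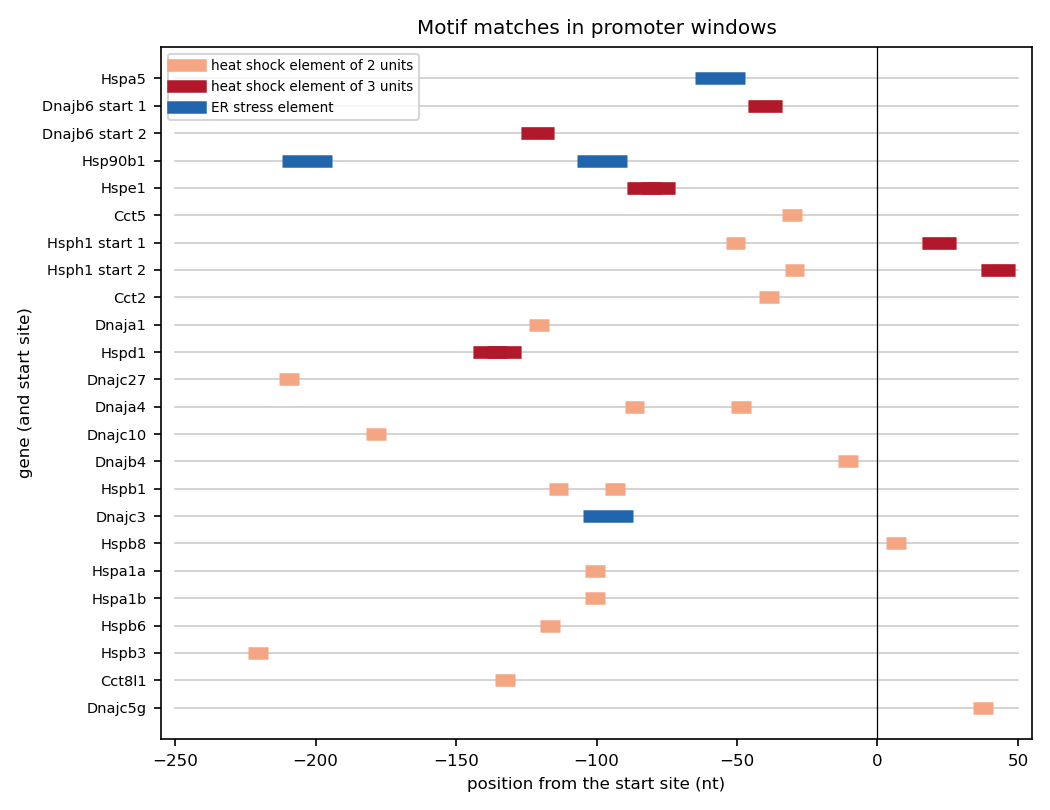
Position of each heat shock element and ER stress element in the RefSeq promoter windows of the members that hold one, in nucleotides from the start site (vertical line), 1 row for each window, with genes in order of abundance from the top. Light bars are heat shock elements of 2 units, dark red bars those of 3 units and blue bars ER stress elements; the stretch shared by Hspe1 and Hspd1 appears in both rows.

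Among the HSP70 genes the constitutive cytosolic form dominated and the stress-inducible forms were low. Hspa8 (chromosome 9, 40800984 to 40810087, mm10), the constitutive form that also uncoats clathrin vesicles, had 1010 TPM in replicate 1 and 1033 TPM in replicate 2. Of the near-identical stress-inducible forms, Hspa1b had 6.92 TPM in replicate 1 and 5.37 TPM in replicate 2, and Hspa1a had 7.57 and 6.81 TPM. The log2 ratio of Hspa8 over Hspa1a was 7.13 ± 0.129, and that over Hspa1b 7.37 ± 0.277 (SD, n = 2). How well reads were split between Hspa1a and Hspa1b, close copies that lie 9951 nt apart on chromosome 17, was not tested. The deposited posterior SDs were 20.5 to 22.1 counts for totals of 1041 to 1729 counts. Hspa1b over Hspa1a gave −0.23 ± 0.148, and the deposited bounds overlapped in replicate 1. The testis-rich Hspa1l, which begins 546 nt beyond Hspa1a on the opposite strand, was at 0.21 and 0.36 TPM.

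Other expressed HSP70 genes ranged from Hspa12b, just below the inducible forms, up to Hspa5. Hspa5 of the endoplasmic reticulum had 108 and 102 TPM in replicates 1 and 2, and Hspa9, the HSP70 of mitochondria, had 69.5 and 62.0 TPM. Hspa5 over Hspa9 was 0.67 ± 0.0557 on the log2 TPM scale, but −0.067 on counts without length adjustment and −0.0060 without transcripts of noncoding types, so their order rested on how transcripts were counted. Hspa2, best known from spermatogenesis, had 35.0 and 29.97 TPM, and 4 of 4 testis markers were under 1 TPM. Hspa12a, a divergent relative, had 34.3 and 29.4 TPM, next to Hspa2, and their deposited bounds overlapped. Its paralogue Hspa12b had 5.46 and 4.80 TPM, and Hspa12a over Hspa12b was 2.61 ± 0.0287 (SD, n = 2). Hspa13 had 10.3 and 8.16 TPM.

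The HSP110 genes, whose proteins exchange nucleotide on HSP70, kept 1 order in both replicates. Hsph1 had 68.7 and 63.3 TPM in replicates 1 and 2, Hspa4 47.9 and 40.6 TPM, and Hspa4l 22.2 and 17.7 TPM. On the log2 scale Hsph1 over Hspa4 was 0.58 ± 0.0854 and Hspa4l over Hspa4 was −1.15 ± 0.0648 (SD, n = 2), with bounds apart in both replicates. The transcript that took most of Hspa4l is not among those of the annotation used for types.

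HSP90 transcripts followed the order of the constitutive cytosolic, inducible cytosolic and endoplasmic reticulum forms. Hsp90ab1, the constitutive form, had 510 TPM in replicate 1 and 469 TPM in replicate 2. Hsp90aa1, the inducible form, had 294 TPM in replicate 1 and 232 TPM in replicate 2. Hsp90b1 had 103 and 92.7 TPM. Hsp90ab1 over Hsp90aa1 was 0.91 ± 0.153 and Hsp90ab1 over Hsp90b1 was 2.32 ± 0.0190 (log2, SD, n = 2). All 3 forms were thus present at high levels, unlike the inducible HSP70 genes.

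J-proteins, which deliver clients to HSP70, made up 45 of the members. Of these 45, 38 reached 1 TPM in both replicates (60.7% of all protein-coding genes did). The most abundant by TPM was Dnajc7, which binds both HSP70 and HSP90, at 116 and 112 TPM in replicates 1 and 2. Most of the TPM of Dnajc7 lay on transcripts of noncoding types, and without them it had 35.7 and 34.3 TPM, below Dnajb6 with 100.9 and 93.9 TPM and Dnajc5 with 77.3 and 57.4 TPM. Dnajc5, the cysteine string protein of synaptic vesicles, had 88.7 and 68.8 TPM. Dnajc6, the neuronal auxilin that brings HSP70 to clathrin coats, had 77.4 and 67.1 TPM, and its ubiquitous counterpart Gak, counted below among co-chaperones, had 38.4 and 34.3 TPM. Dnajc13, of endosomes, had 47.4 and 41.7 TPM. Dnajc8, a splicing factor, had 82.7 and 70.5 TPM, and Dnajc27, a small GTPase with a J domain, had 48.6 and 41.4 TPM. The lowest DNAJC gene at 1 TPM or more in both replicates was Dnajc25, with 2.15 and 2.00 TPM.

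In the DNAJB class Dnajb6, known for holding back polyglutamine aggregation, led with 103 and 96.1 TPM in replicates 1 and 2. Dnajb5 followed with 65.1 TPM in replicate 1 and 74.4 TPM in replicate 2. Dnajb2, a neuronal J-protein that binds ubiquitin, had 40.8 and 44.6 TPM. Both Dnajb5 and Dnajb2 were thus lower in replicate 1, whereas 59 of the 70 members averaging at least 1 TPM (84.3%) had the higher TPM in replicate 1, against 76.5% of all genes at that level. Dnajb1, the heat-inducible partner of Hspa8, had 26.0 and 25.02 TPM, and its paralogue Dnajb4 had 23.4 and 20.5 TPM. On the log2 scale Dnajb6 over Dnajb2 was 1.22 ± 0.160 and Dnajb1 over Dnajb4 was 0.22 ± 0.0959 (SD, n = 2). Dnajb14 had 11.5 and 10.1 TPM and Dnajb12, likewise of the ER membrane, had 25.9 and 24.2 TPM, a log2 ratio of −1.21 ± 0.0588 for Dnajb14 over Dnajb12. On counts without length adjustment that ratio was 0.92. Of the lumenal J-proteins, Dnajb11 had 22.2 and 21.2 TPM and Dnajb9 had 18.2 and 17.3 TPM.

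The 4 DNAJA genes were all expressed. Dnaja1, a main cytosolic partner of Hspa8, had 65.7 and 57.2 TPM in replicates 1 and 2, Dnaja2 38.4 and 38.5 TPM, mitochondrial Dnaja3 26.8 and 25.1 TPM, and Dnaja4 24.1 and 22.7 TPM. Dnaja1 over Dnaja2 was 0.67 ± 0.145 and Dnaja1 over Dnaja4 was 1.39 ± 0.0823 (log2, SD, n = 2). Of the J-proteins of the mitochondrial import motor, Dnajc19 had 35.9 and 35.9 TPM and Dnajc15 had 37.3 and 28.9 TPM. Their order differed between the replicates, so neither can be placed above the other. All of the TPM of Dnajc15 lay on 1 entry of 648 nt, typed as a target of nonsense-mediated decay. Over all families, 49 of 60 neighbours in the order of mean levels kept their order in both replicates, and for 33 of the 60 the deposited bounds were apart in both. Within DNAJC 7 of 24 neighbours were apart in this sense, so much of the order within that class is not resolved.

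Small heat shock proteins, which hold unfolded proteins without ATP, were low. Hspb1 led with 15.4 TPM in replicate 1 and 20.1 TPM in replicate 2. Hspb11, an intraflagellar transport protein despite its symbol, had 9.43 and 9.35 TPM, Hspb8, the partner of Bag3, had 7.06 and 7.37 TPM, Hspb6 had 4.83 and 5.25 TPM, and Hspb3 had 4.38 and 3.59 TPM. Hspb1 over Hspb8 was 1.28 ± 0.227 and Hspb6 over Hspb1 was −1.79 ± 0.186 (log2, SD, n = 2). Cryab, alpha-B crystallin, a small heat shock protein that its symbol leaves outside the members, was higher at 50.9 and 63.0 TPM.

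The mitochondrial chaperonin pair showed unequal levels. Hspd1, which forms the chamber, had 60.2 and 51.7 TPM in replicates 1 and 2, and Hspe1, its lid, had 93.7 and 92.3 TPM. Hspd1 over Hspe1 was −0.74 ± 0.141 on the log2 TPM scale (SD, n = 2), and 1.06 on counts, which are not adjusted for length. Many processed pseudogenes of chaperonins exist. Of the 12 named pseudogenes of members examined, Dnajc19-ps had the highest TPM, 1.18 and 0.89, ahead of Hspd1-ps3 with 0.93 and 0.66 TPM. By counts Hspd1-ps3 was the higher, with 117 and 74.85 counts against 14.05 and 9 for Dnajc19-ps.

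CCT, whose ring holds 8 different subunits in equal number, had unequal transcripts. By TPM Cct5 was the highest, with 96.8 TPM in replicate 1 and 80.4 TPM in replicate 2. Cct3 had 81.1 and 69.5 TPM, Cct8 77.3 and 64.6 TPM, Cct7 71.3 and 62.7 TPM, Tcp1 71.4 and 60.1 TPM, and Cct2 68.4 and 61.3 TPM. These middle 5 lay close together, and the deposited bounds of neighbours among them overlapped in at least 1 replicate. Cct4 had 40.3 and 31.4 TPM. Cct6a had 36.2 and 27.3 TPM, and it is counted here with the ring although the annotation types it as noncoding, so that it is not a member. The highest subunit was 2.67 times the lowest in replicate 1 and 2.94 times in replicate 2, and the coefficient of variation over the 8 subunits was 31.0 ± 1.55% (SD, n = 2). The same measure was 23.6 ± 1.46% over the 14 subunits of the 20S proteasome and 112 ± 3.62% over the 6 subunits of prefoldin, which hands actin and tubulin to CCT. In prefoldin Pfdn5 stood far above the rest, at 266 and 240 TPM against 78.4 and 67.5 TPM for the next, Pfdn2. On counts without length adjustment the prefoldin measure was 87.6% in replicate 1 and 87.3% in replicate 2. Cct6b, the testis paralogue of Cct6a, had 0.09 and 0.06 TPM, a log2 ratio of 7.50 ± 0.112 for Cct6a over Cct6b on TPM plus 0.1. The order of the subunits depended on the measure. On counts without length adjustment Cct7 was the highest, with 13242 and 10512, against 11971 and 8716 for Cct5. Without transcripts of noncoding types Cct5 stayed the highest at 87.9 and 71.3 TPM. Cct3 then had 57.4 and 42.9 TPM, below Cct2, Cct7, Cct8 and Tcp1.

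**Figure D3:**
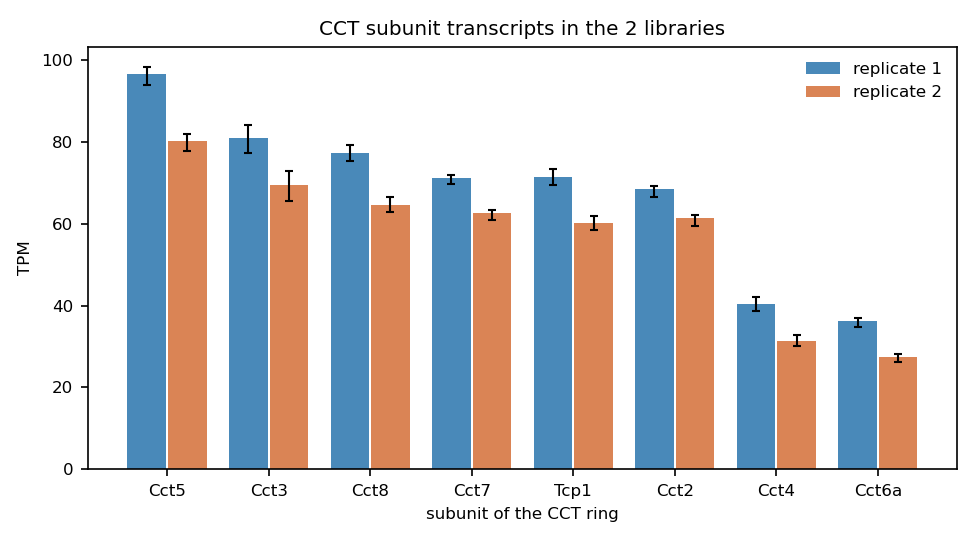
TPM of the 8 subunits of the CCT ring, in order of their mean, with replicate 1 left of replicate 2; whiskers are the deposited interval bounds of each estimate. Cct5 stood above the others in both replicates, and Cct4 and Cct6a lay between 27.3 and 40.3 TPM, below the other 6.

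Across the 22 pairs of related genes compared in all, 21 (95.5%) were apart, meaning that the sign was the same in both replicates, the mean log2 ratio exceeded its SD and the deposited bounds did not overlap in either replicate. The exception was Hspa1b over Hspa1a. Some pairs, such as Dnajc5 with Dnajc5b and Cct6a with Cct6b, set an abundant gene beside a nearly absent one. The share apart thus only describes the pairs chosen. Dnajc5 over Dnajc5b was 8.98 ± 0.192 (SD, n = 2), but the paralogue had 3 and 2 counts, and with 1 TPM added in place of 0.1 the ratio was 6.23. On counts without length adjustment Hspb1 over Hspb8 was 0.07, with −0.08 in replicate 1 and 0.23 in replicate 2, so that difference did not hold there. Counts also moved Hspb6 over Hspb1 to −1.05, Hspa4l over Hspa4 to −0.44, Hspa8 over Hspa1a to 6.49 and Hspa12a over Hspa12b to 3.68. They reversed the sign of Hspa5 over Hspa9, Hspd1 over Hspe1 and Dnajb14 over Dnajb12.

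Of the members, 12 were under 1 TPM in both replicates. Several are best known from testis, as Hspa1l, Cct6b, Dnajb13, Dnajb8 and Hspb9 are, and Hspb2 and Hspb7 from heart and skeletal muscle. Hspb2 was the highest of them with 0.57 and 0.58 TPM, on 30 and 27 counts. Dnajb8, Dnajc5g and Hspb9 had no counts in either replicate, and a count of 0 allows up to 3 counts, or 0.0295 CPM in replicate 1 and 0.0345 CPM in replicate 2. The others were Dnajb13, Hspa1l, Hspb7, Cct8l1, Cct6b, Dnajc5b, Dnajb7 and Dnajc22, between 0 and 0.48 TPM. Dnajb3 passed 1 TPM in replicate 1 alone, with 1.36 TPM there and 0.94 TPM in replicate 2.

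Partners of the chaperones were measured through a list of 58 co-chaperones and related folding factors, none of them members. Of these, 56 reached 1 TPM in both replicates (60.7% of all protein-coding genes did), and only Hsf5 and the lens crystallin Cryaa did not. The median over the 58 was 36.3 TPM. The most abundant were Calr, calreticulin of the endoplasmic reticulum, at 290 and 291 TPM in replicates 1 and 2, Pfdn5, a prefoldin subunit, at 266 and 240 TPM, Hsbp1, a small binder of HSF1, at 210 and 224 TPM, and Canx, calnexin, at 191 and 141 TPM. Ppp5c, a phosphatase bound to HSP90, had 124 and 116 TPM, and Stub1, the ubiquitin ligase CHIP, had 110 and 113 TPM. Stip1, which links HSP70 to HSP90, had 74.7 and 67.6 TPM, and the inducible Bag3 had 3.24 and 3.92 TPM. None of the 56 differed between the replicates by 0.5 or more in the log2 ratio described below. Among all genes averaging at least 1 TPM, 2.86% were at 0.5 or above and 2.34% at −0.5 or below.

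Transcript use was examined in the 41 members that averaged at least 10 TPM and had 2 or more listed transcripts. In 12 of them (29.3%) the most used transcript took under 70% of the TPM of the gene in both replicates, against 51.7% of protein-coding genes at that level. The 12 were Hsp90aa1, Dnajc7, Hspa5, Dnajc6, Dnajb5, Dnaja1, Dnajc13, Dnajb2, Dnajc11, Dnajb12, Dnajc17 and Dnajc4. In 5 of the 41 (12.2%), namely Dnajc7, Hspa5, Dnajb5, Dnajc11 and Dnajc17, transcripts of noncoding types took over 30% in both replicates, against 22.6% of such genes. Dnajc15, with 1 listed transcript, was not among the 41, and all of its TPM was of a noncoding type. Over all members, with no filter, noncoding types took 12.7% of the TPM in replicate 1 and 17.4% in replicate 2. Over the protein-coding genes averaging at least 10 TPM with 2 or more listed transcripts they took 16.5% and 16.2%. The sets were thus not filtered alike. TPM divides by length, so a short entry gains more TPM for each read.

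In Dnajc7 noncoding types took 69.2% in replicate 1 and 69.5% in replicate 2. A processed transcript of 770 nt was at 38.6 and 39.9 TPM, beside 35.7 and 34.3 TPM for the main coding transcript of 2330 nt. The coding one held more of the reads, with 6273 and 5433 counts, against 1797 and 1659 counts for the processed transcript. Hspa5 had 64.2 and 63.3 TPM on its coding transcript of 2613 nt. A further 40.0 and 34.7 TPM were given to an entry of 477 nt typed as a target of nonsense-mediated decay, from 890 and 678 counts.

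In Hspa8, the most abundant member, transcript use differed between the replicates. Its coding transcript of 2394 nt had 829 TPM in replicate 1 and 673 TPM in replicate 2, or 82.1% and 65.2% of the gene. A processed transcript of 727 nt had 143 TPM in replicate 1 and 297 TPM in replicate 2, or 14.2% and 28.7%. On the TPM scale the gene as a whole was therefore slightly lower in replicate 1, whereas in scaled counts it was slightly higher, with a log2 ratio of 0.07. Without transcripts of noncoding types its share of the members was 21.9% in replicate 1 and 20.3% in replicate 2.

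Hsp90aa1 divided between a pair of coding transcripts, and their shares differed between the replicates. The transcript of 3281 nt took 67.1% in replicate 1 and 52.0% in replicate 2, and that of 2852 nt took 29.2% and 44.8%. Dnajc6 likewise had 2 nearly equal coding transcripts of 5128 and 5127 nt, the first at 36.8% and 50.4% and the second at 41.8% and 32.9%, and the more used of the pair changed with the replicate. In Dnajc13 an entry of 398 nt took 35.9% and 51.7% of the TPM on 268 and 293 counts, while the transcript of 8012 nt took 18.2% and 17.1% on 5569 and 4156 counts. The TPM of Dnajc13 thus rested largely on short entries with few reads.

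**Figure D4:**
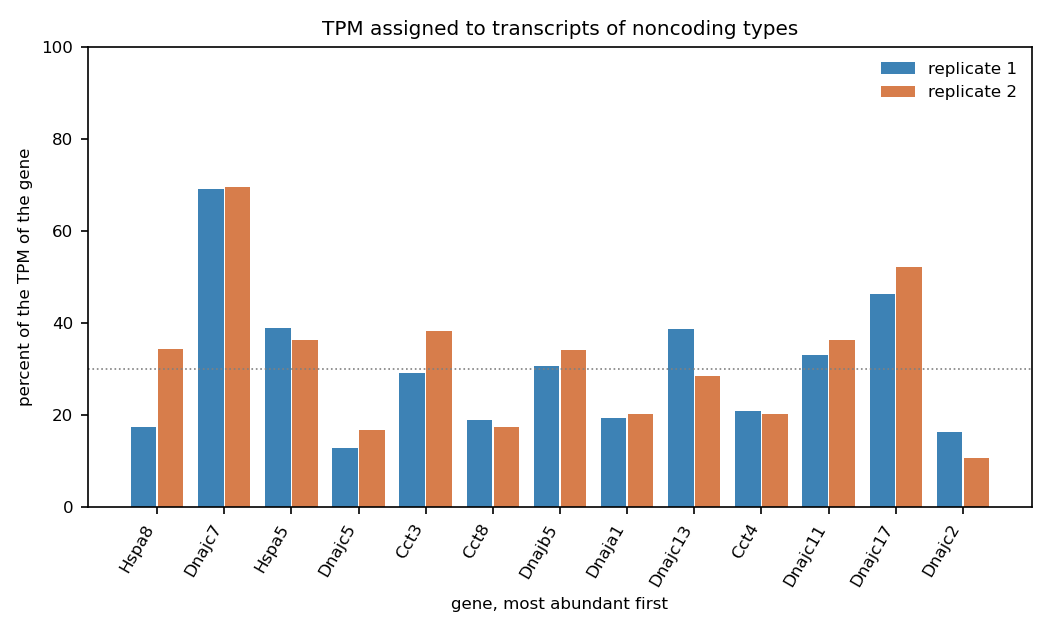
Percent of the TPM of a gene assigned to transcripts of noncoding types, with replicate 1 left of replicate 2, for those of the 41 members in which that percent passed 15 in either replicate; the dotted line marks 30%. Dnajc7 stood at 69.2% and 69.5%, and Hspa8 at 17.4% in replicate 1 and 34.4% in replicate 2.

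Differences between the replicates were mostly small, for the members as for all genes. They are log2 ratios of replicate 1 over replicate 2 of CPM scaled by TMM factors, over the 70 members averaging at least 1 TPM. The median ratio was 0.01, against 0.00 over 14599 genes at that level, and the median size was 0.07, against 0.10. Those genes were not matched to the members in abundance. Ratios above 0 were seen in 38 members (54.3%), against 50.5% of all genes. No member was at 0.5 or above, against 2.86% of all genes, and 1 member, Hspb1, was at −0.5 or below, against 2.34%. On log2 of TPM the median was 0.14 for members and 0.12 for all genes, so most members read as higher in replicate 1 on that scale.

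Hspb1 had 887 counts in replicate 1 and 1037 counts in replicate 2, a ratio of −0.50 and counting bounds of −0.64 to −0.38 (95%, exact binomial, counting error only). It lay just past the threshold, and with the library size, the spike-ins or log2 of TPM as the scale it did not pass. Cryab among the co-chaperones was at −0.43 and Bag3 at −0.41. Oligodendrocyte and blood genes were lower in replicate 1 in the same direction, with summed levels of 1802 and 2221 TPM and of 478 and 622 TPM, and their part in the ratio of Hspb1 was not tested. All 5 oligodendrocyte genes and the globins were well above 1 TPM in both replicates.

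The 7 expressed CCT members were all higher in replicate 1, by 0.03 for Cct2 to 0.22 for Cct3. This direction held under every scaling tried, but the other count scalings could not have reversed it. They shift all genes nearly alike. The median over all genes was 0.002 here, 0.0006 with DESeq2, 0.05 with the library size and 0.04 with the spike-ins. On log2 of TPM it was 0.12, also an upward shift. HSP70 genes were higher in replicate 1 in 8 of 9 cases, led by Hspa1b at 0.23. The exception was Hspa5, at −0.09 here and −0.04 with the library size, or Hspa8 on log2 of TPM. Hsp90aa1 was at 0.23, with a counting interval of 0.22 to 0.25, whereas Hsp90ab1 was at −0.02. The 4 DNAJA genes were all lower in replicate 1, by −0.04 to −0.14, but 2 of the 4 were higher with the library size, 1 with the spike-ins and 3 on log2 of TPM, so that direction was not stable. Dnajb2 and Dnajb5 stood out among the J-proteins, at −0.28 and −0.26. Dnajc15 was at 0.26 and Dnajb3, with 95 and 59 counts, at 0.40, with a counting interval of −0.08 to 0.90.

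Both heat shock factors were close to even, at −0.07 for Hsf1 and −0.06 for Hsf2, and above 0 on log2 of TPM. The 4 genes with a heat shock element of 3 units were at −0.10 to 0.10. The inducible genes differed in direction, with Hspa1b at 0.23, Hspa1a at 0.02, Dnajb1 at −0.08, Hsph1 at −0.01 and Hspb1 at −0.50. All 7 unfolded protein response genes were lower in replicate 1 (median −0.17), and Hspa5 was lower at −0.09 while Hsp90b1 was at 0.00 and Dnajc3 at 0.08. Activity genes summed to 197 TPM in replicate 1 and 399 TPM in replicate 2, and their part in these ratios was not tested. In 40 of the 70 members the counting interval excluded 0 (57.1%), against 54.9% of all genes. It lay above 0 in 23 members (32.9%), against 27.2%, and below 0 in 17 (24.3%), against 27.7%, and it covers counting error in these 2 libraries and no difference between conditions.

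**Figure D5:**
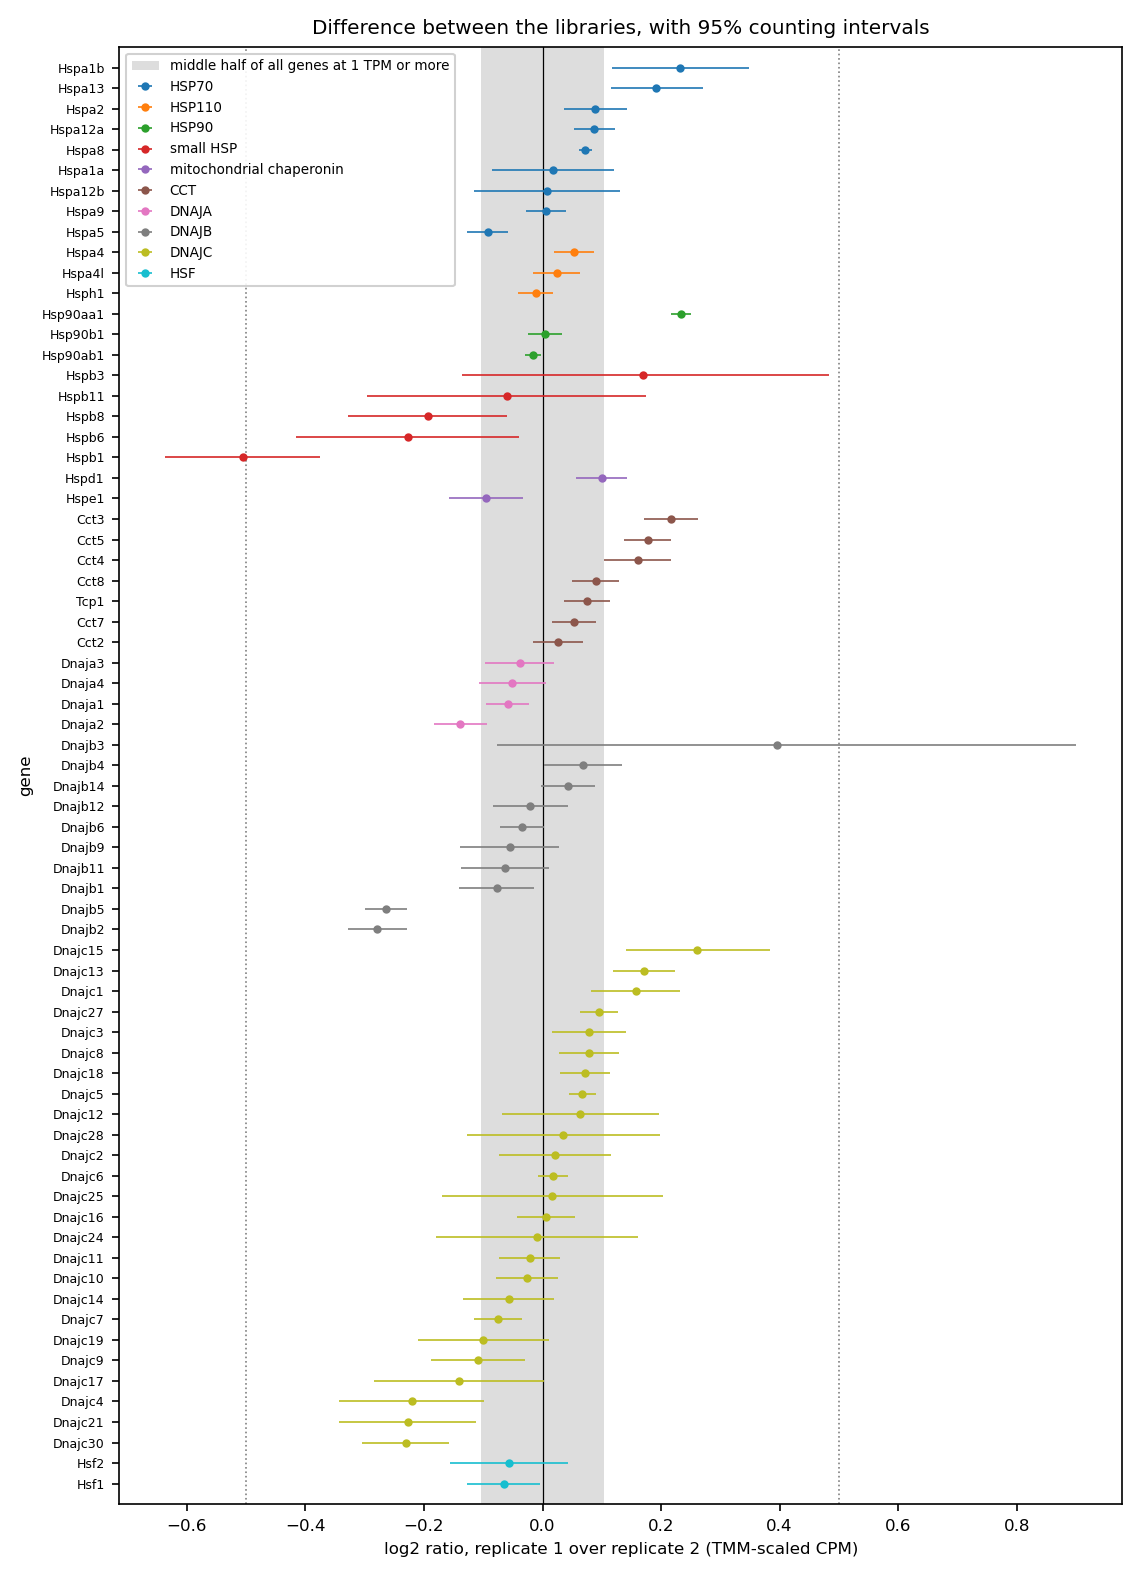
log2 ratio of replicate 1 over replicate 2 for the 70 members averaging at least 1 TPM, by family, in CPM scaled by TMM factors, with 95% counting intervals. The grey band spans the lower to the upper quartile over all genes at that level (−0.10 to 0.10) and dotted lines mark 0.5 on either side; Hspb1 alone reached a dotted line by its point.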

How the data were processed

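The members and lists were chosen with earlier results of these data known. For each replicate a table of genes and one of transcripts were deposited, made by the authors from transcriptome alignments to mm10 and annotation M4, per the deposited text description. Their columns have the RSEM layout, and no name of an aligner or counter is given in the sources used here. Of the deposited values, expected counts are estimated fragments, and TPM and FPKM are adjusted for length over all entries, spike-ins among them. The deposited transcript tables give the percent of the TPM of a gene taken by each transcript. As deposited, posterior SDs of counts were read as a score, and interval bounds and lengths as a signal without a stated level. Bounds did not contain the deposited TPM for 4 members in replicate 1 and 5 in replicate 2.

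Names, types and mm10 coordinates came from GENCODE M21 by identifier. Expected counts were rounded for TMM and DESeq2 scaling (edgeR 4.0.16, DESeq2 1.42.0, R 4.3.3); CPM ratios used a prior count of 2, on a step tested on simulated data. Counting intervals are exact conditional binomial intervals, and since PCR copies are not told apart, intervals and limits cover counting error only. No p-values were computed, since 1 group of 2 replicates holds no contrast. Pair ratios used TPM plus 0.1. A chi-square over 20323 genes with 10 or more counts gave 52.7 for each gene, so the replicates are not 1 library deposited as a pair. Named are the 6 most abundant members of each family and its lowest expressed one, the ring subunits, the genes of the pairs, members beyond 0.5 in the replicate ratio, members with divided transcript use, genes with a motif, and the most abundant co-chaperones; other names, the 20S proteasome and the ER stress element were chosen after values were seen.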

Additional observations from a re-analysis of the deposited data

How the results depend on the processing

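No paired analysis was possible because there is 1 group. Leaving out either replicate kept every count tried this way within 1.5 times of the reported value. For the shares and the CCT coefficient of variation this cannot be tested. Either of 2 values always lies within 1 SD of their mean. On expected counts in place of TPM, the members took 0.897% of nuclear protein-coding genes, HSP70 26.9% and Hspa8 19.5% of the members, and the CCT coefficient of variation was 34.2%. With TPM of all entries as the total the members took 0.420%. Without transcripts of noncoding types, an alternative added after the data were seen, HSP70 took 27.3% and Hspa8 21.1%. Counts reversed Hspa5 over Hspa9 (−0.067), Hspd1 over Hspe1 (1.06) and Dnajb14 over Dnajb12 (0.92), and leaving out noncoding types reversed Hspa5 over Hspa9 (−0.0060); TPM divides by length, and counts do not. Members lower in replicate 1 by 0.5 numbered 0 with library size, 0 with the spike-in total, 0 on log2 of TPM plus 1 and 3 with no filter on low values, and members higher by 0.5 numbered 2 with no filter. A heat shock element of 2 units was in windows of 19 members. Of the remaining single pair ratios under alternatives, 35 moved by more than 1 SD and kept their sign and 27 stayed within it. With 2 replicates an SD has 1 degree of freedom, and depth limits the 12 members under 1 TPM.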
